A study of Saccharomyces cerevisiae with 7 samples.

Results

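The genes described here encode enzymes that build histidine, leucine, isoleucine, valine, lysine, the aromatic amino acids, threonine and serine in budding yeast (Saccharomyces cerevisiae), together with GCN4, their common transcriptional activator. They were taken by systematic name from a fixed list of 36 genes that leaves out the arginine and sulfur pathways. Of these, 34 had a value at all 7 times, out of 5585 such genes in a table of 6141. HIS4 (YCL030C), a multifunctional enzyme of histidine synthesis, had a value at 6 h only (1.08), and 1 further listed gene was not analysed here.

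All samples came from a spo11-Y135F mutant, in which Spo11, the enzyme that cuts DNA to start meiotic recombination, lacks its catalytic tyrosine. RNA was taken 1, 2, 3, 4, 5, 6 and 8 h into a meiotic culture, with 1 array for each time. Each deposited value is the log2 of the ratio of that time's mRNA to a mixture of mRNA from all times, set relative to the same ratio at 0 h, so that 1 stands for a transcript share 2-fold above 0 h. The study states 2 independent cultures, but each time has 1 value, and single times therefore carry no replicate error. No wild type was analysed here, and the sources used here name neither strain background nor medium. HIS3, LEU2, LYS2 and TRP1 are common marker genes of laboratory strains, and the labels do not give their alleles in this one.

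Yeast makes all of these amino acids itself. Gcn4 is a leucine-zipper activator that binds upstream of most of these genes when amino acids run short, a response known as general amino acid control. Its synthesis is controlled chiefly at translation, through short reading frames in the leader of its mRNA, whose block the kinase Gcn2 relieves, and its protein is short-lived, so the GCN4 transcript is not a measure of Gcn4 activity. Some branches have an activator of their own that responds to a pathway intermediate: Leu3 for the branched-chain amino acids and Lys14 for lysine.

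The columns had medians between -0.15 (6 h) and 0.03 (1 h) over the 5585 genes and standard deviations between 0.84 (2 h) and 1.49 (6 h). The 6 h column also has a different set of empty rows from the others. Among 7 genes known to be induced in meiosis, 6 exceeded 0 h by 2-fold or more in the first sample and all 7 at 4 h, when their median was 5.00. The values are shares of mRNA of a whole culture, so fewer cells that express a gene and less of its RNA per cell cannot be told apart. An error in the 0 h measurement would move all values of a gene together where the columns share it, but not the difference between 2 such times.

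As a group the amino acid genes stood close to 0 h, highest in the first sample and lowest from 4 to 6 h. The median log2 ratio of the 34 was 0.16, -0.23, -0.01, -0.41, -0.49, -0.48 and -0.18 at the 7 times in order. Without GCN4 it was -0.41, -0.36 and -0.47 at 4, 5 and 6 h. The median over all genes lay between -0.15 and 0.03 at the 7 times. At 1 h a distance of at least 2-fold above 0 h was seen for 7 of the 34 (20.6%), against 10.8% of all genes, and 3 were at least 2-fold below, against 9.44%. At 5 h the numbers were 2 above, against 16.3% of all genes, and 11 below (32.4%), against 17.4%. With the columns quantile-normalized the 5 h numbers were 0 above, against 12.9% of all genes, and 6 below (17.6%), against 12.1%. At 8 h 4 were above and 3 below, against 12.3% and 10.8% of all genes. In between, those above numbered 2, 2, 1 and 3 at 2, 3, 4 and 6 h, against 8.68%, 7.68%, 11.5% and 18.9% of all genes. Those below numbered 2, 3, 5 and 6 at the same times, against 9.35%, 8.43%, 10.7% and 19.5%. At some time 10 of the 34 were at least 2-fold above 0 h and 14 at least 2-fold below, against 34.9% and 35.2% of all genes. A distance of 4-fold was reached by 7 (20.6%, against 20.4% of all genes), namely HIS1, LEU2, ILV2, ILV5, BAT2, LYS20 and LYS4. The 12 that stayed within 2-fold throughout (35.3%, against 34.3% of all genes) included HIS3, LEU4, LYS9, HOM3 and 3 of the 4 tryptophan genes.

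**Figure D1:**
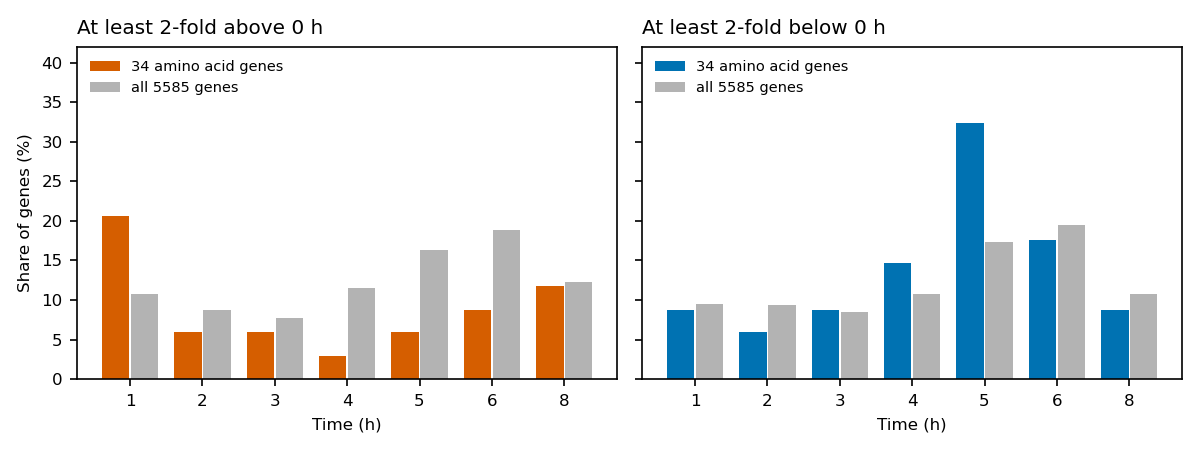
Share of genes, in percent, at least 2-fold above (left) or below (right) 0 h at each time in hours, for the 34 amino acid genes (coloured bars) and for all 5585 genes (grey bars), 1 array per time. On the left the coloured bar is above the grey one only at 1 h (20.6% against 10.8%) and below it at every later time. On the right it is above by the widest margin at 5 h (32.4% against 17.4%). With quantile-normalized columns, not plotted, the 5 h share below 0 h was 17.6% against 12.1%.

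The highest value of a course fell on 1 h for 16 of the 34 genes (47.1%), against 20.7% of all genes. They were HIS3, HIS5, LEU1, LEU2, LEU4, ILV1, ILV2, BAT1, LYS21, ARO3, all 4 tryptophan genes, HOM3 and HOM2. The 0 h point was not counted, so a highest value at 1 h need not be a rise. HOM2 was below 0 h even then (-0.55), and TRP2, HIS5 and LYS21 were at 0.0011, 0.09 and 0.14. The lowest value fell on 5 h for 11 (32.4%), against 15.5% of all genes, and on 6 h for 7, against 25.6%. The share highest at 1 h does not rest on the 6 h array, since without it 17 of the 34 (50.0%) were highest at 1 h, against 23.3% of all genes.

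**Figure D2:**
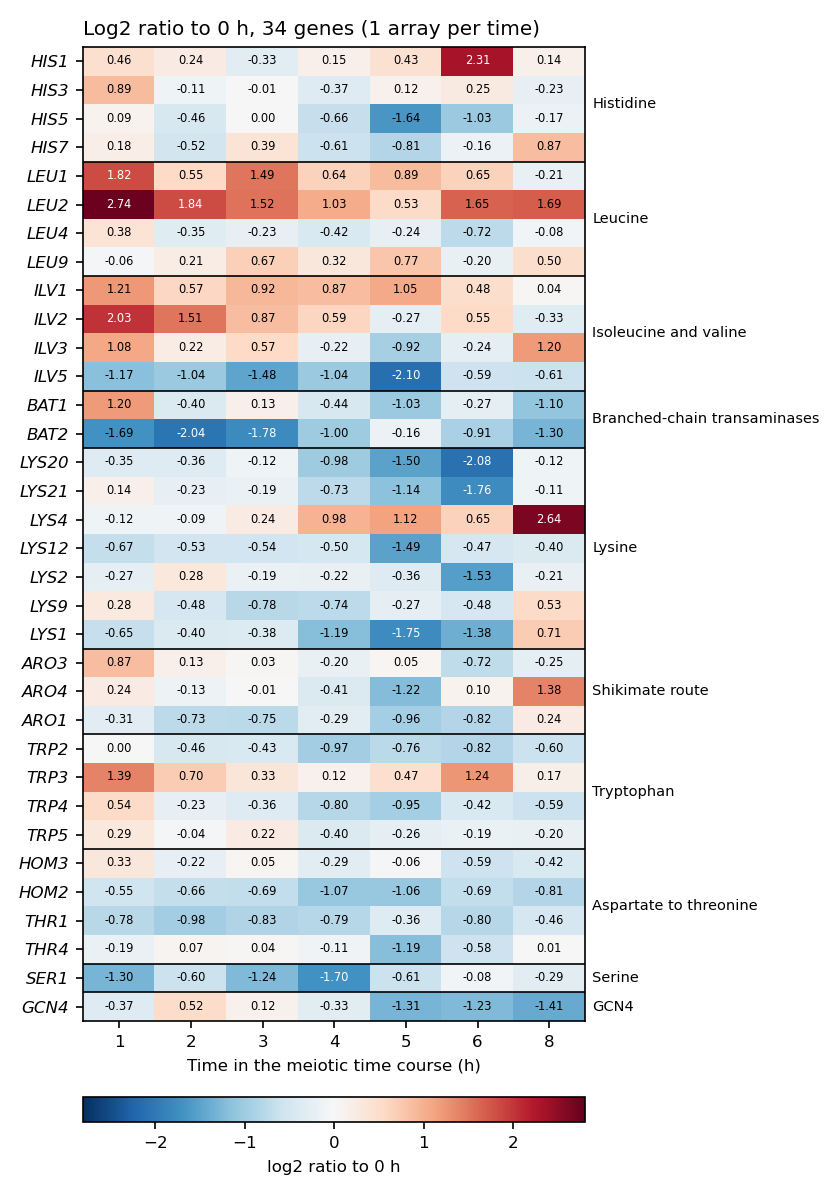
Log2 ratio to 0 h of the 34 genes (rows, grouped by pathway) at each time in hours (columns), with 1 array per time; red stands for values above 0 h, blue for values below, and the number in each cell is the value. LEU2 at 1 h (2.74) and LYS4 at 8 h (2.64) are the highest cells, and ILV5 at 5 h (-2.10) is the lowest.

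The leucine branch starts with isopropylmalate synthase (Leu4 and Leu9) and goes on through the isomerase Leu1 and the dehydrogenase Leu2. LEU2 (YCL018W) was at 2.74, 1.84, 1.52, 1.03, 0.53, 1.65 and 1.69 at 1, 2, 3, 4, 5, 6 and 8 h. It was thus above 0 h at every time, 6.70-fold at 1 h, and lowest at 5 h. The size of the first values depends on the scaling: with quantile-normalized columns LEU2 was 32.3-fold above 0 h in that first sample and LEU1, described next, 7.74-fold in place of 3.54-fold. LEU1 (YGL009C) was at 1.82, 0.55, 1.49, 0.64, 0.89, 0.65 and -0.21, which made it the gene with the second highest value of the branch at 1 h and the lowest at 8 h. The synthase genes did not share this: LEU4 (YNL104C) was at 0.38, -0.35, -0.23, -0.42, -0.24, -0.72 and -0.08, and LEU9 (YOR108W) lay between -0.20 at 6 h and 0.77 at 5 h. The highest and lowest member of the branch were 2.81 apart at 1 h and 1.13 at 5 h. None of the 4 passed the tests over time given below. NFS1, the protein-coding neighbour of LEU2 on one side, lay between -0.21 and 0.83, and no neighbour on the other side was measured.

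Isoleucine and valine share most of their steps. Ilv1, threonine deaminase, feeds the isoleucine arm, and Ilv2 (acetolactate synthase), Ilv5 (the reductoisomerase) and Ilv3 (the dehydratase) act in both arms. ILV2 (YMR108W) was at 2.03, 1.51, 0.87, 0.59, -0.27, 0.55 and -0.33 at 1 to 8 h, which is 4.09-fold above 0 h at 1 h and below it at 5 and 8 h. With quantile-normalized columns its 1 h value was 11.4-fold above 0 h. ILV5 (YLR355C) was the opposite case, with -1.17, -1.04, -1.48, -1.04, -2.10, -0.59 and -0.61. It was below 0 h at every time, by 4.29-fold at 5 h, although its product acts between those of ILV2 and ILV3. ILV3 (YJR016C) had its high values first and last, 1.08 and 1.20, with -0.92 in the 5 h sample. ILV1 (YER086W) was at 1.21, 0.57, 0.92, 0.87, 1.05, 0.48 and 0.04, above 0 h throughout. At 1 h the 4 genes of the arm spanned 3.20 on the log2 scale, with ILV1, ILV2 and ILV3 more than 2-fold above 0 h and ILV5 more than 2-fold below. Of the neighbours of ILV2, SPG4 had values of 1.97 and 2.18 at the first 2 times, where MYO5 had -0.10 and -0.31. ILV5 had TAL1 on one side, between -2.44 and -0.91, and ATG33 on the other, between 0.55 and 1.89; neither reading frame overlaps that of ILV5, and the part of neighbouring transcripts in these values was not tested.

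The branched-chain transaminases complete and reverse these routes. Bat1 is the mitochondrial enzyme, used chiefly in synthesis, and Bat2 the cytosolic one, used chiefly in breakdown. BAT1 (YHR208W) was at 1.20, -0.40, 0.13, -0.44, -1.03, -0.27 and -1.10, so that only its 1 h value was at least 2-fold above 0 h. BAT2 (YJR148W) was at -1.69, -2.04, -1.78, -1.002, -0.16, -0.91 and -1.30. The 2 transcripts were 2.89 apart at 1 h, a 7.40-fold difference in their ratios to 0 h, with BAT1 higher. At 5 h BAT2 was higher by 0.87, and at 8 h they were 0.20 apart. Of the neighbours of BAT2, HMS2 was at -0.09, -1.69, -1.35, -1.53, -2.52, -1.62 and -2.63, and YJR149W lay between -0.82 and 0.40. Neither reading frame overlaps that of BAT2, and the part of neighbouring transcripts in its values was not tested.

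**Figure D3:**
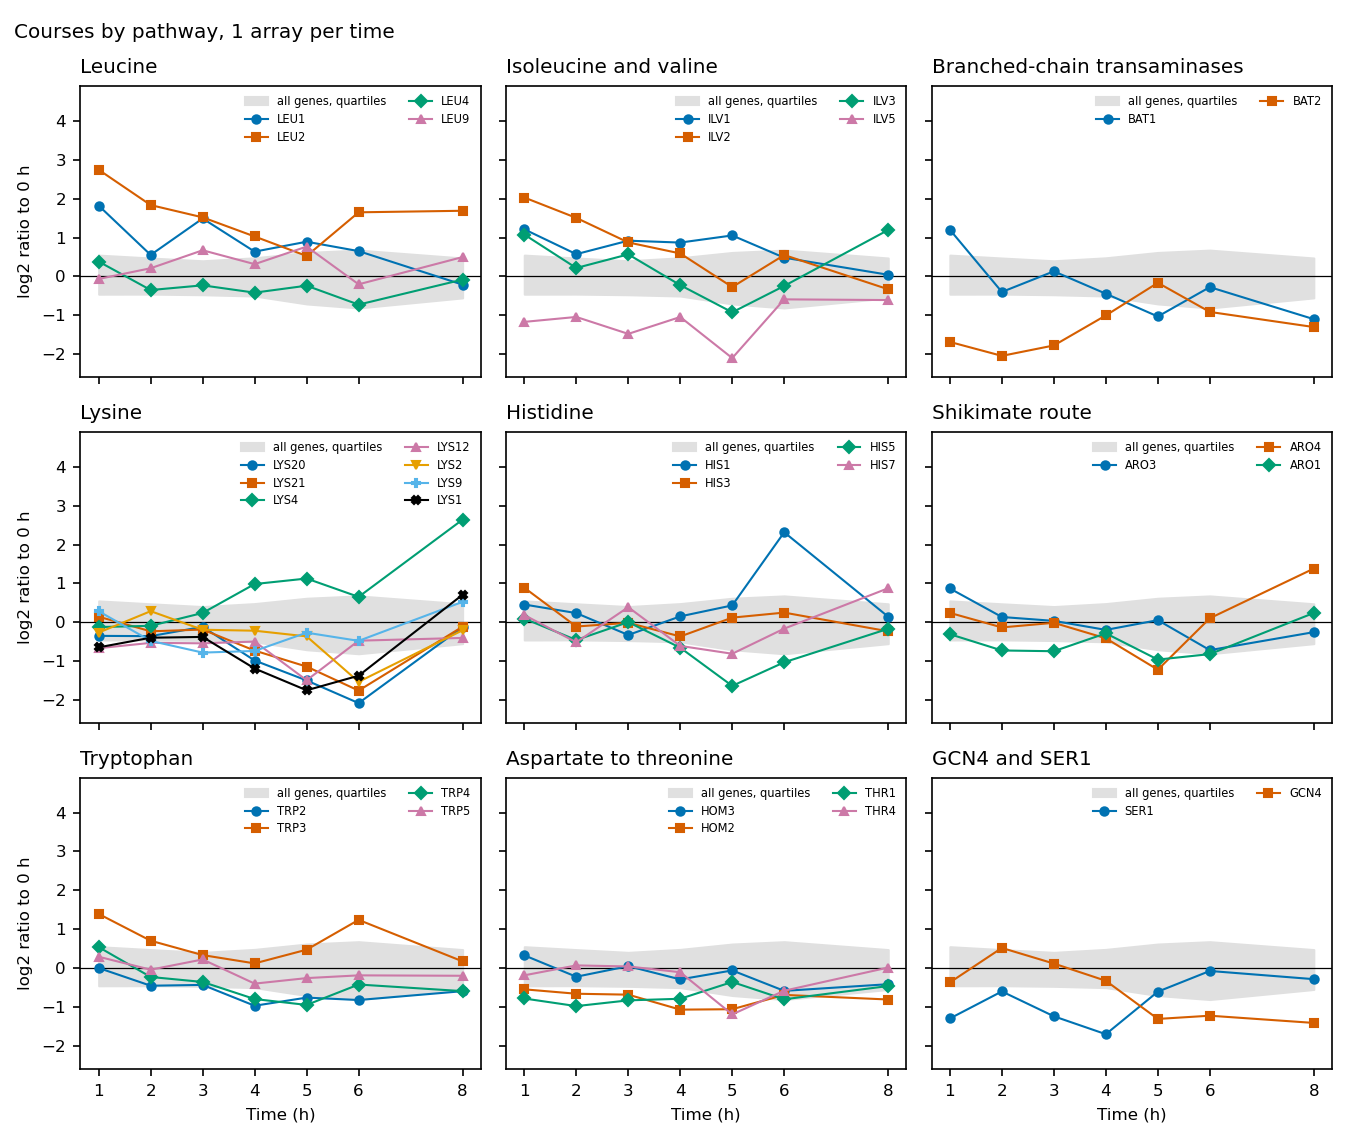
Log2 ratio to 0 h against time in hours for the 34 genes by pathway, 1 array per time; each line is a gene, and the grey band spans the quartiles of all 5585 genes. The leucine, isoleucine and valine panels start at 1 h with LEU2 and ILV2 at 2.74 and 2.03, in the lysine panel LYS20, LYS21 and LYS1 are more than 2-fold below 0 h at both 5 and 6 h while LYS4 is above it, and GCN4 lies below -1 from 5 h on.

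Lysine is made in fungi by the aminoadipate route, which starts with homocitrate synthase (Lys20 and Lys21). Homoaconitase (Lys4), homoisocitrate dehydrogenase (Lys12), aminoadipate reductase (Lys2) and the saccharopine dehydrogenases Lys9 and Lys1 follow. Over its 7 genes the branch had medians of -0.27, -0.36, -0.19, -0.73, -1.14, -1.38 and -0.11. In the 5 h sample LYS20, LYS21, LYS12 and LYS1 lay more than 2-fold below 0 h, and in the 8 h sample no gene of the branch did.

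LYS4 (YDR234W) stood apart from its branch. It was at -0.12, -0.09, 0.24, 0.98, 1.12, 0.65 and 2.64 at 1, 2, 3, 4, 5, 6 and 8 h, 6.23-fold above 0 h at the last time. It was the only one of the 34 to pass the test for a slope over time, at 0.36 ± 0.08 log2 per hour (SE, 7 arrays, limma adjusted p = 0.04998) and so rose over the time course. It also passed the test for a curved course (limma adjusted p = 0.0490). Both values lie at the threshold of 0.05. Without any 1 of the 7 arrays the slope was between 0.24 and 0.42 and did not pass (limma adjusted p between 0.0658 and 0.195), and the curved course passed in 1 of those 7 fits, the one without the 6 h array. Its neighbours RTN1 and PRP42 were at 0.34 and 0.26 at 8 h.

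The homocitrate synthase genes had like courses. LYS20 (YDL182W) was at -0.35, -0.36, -0.12, -0.98, -1.50, -2.08 and -0.12, and LYS21 (YDL131W) at 0.14, -0.23, -0.19, -0.73, -1.14, -1.76 and -0.11. They differed by at most 0.49, at 1 h. Their sequences are much alike, and the sources used here do not say how far the array tells them apart, so their values may not be independent. LYS1 (YIR034C), for the last step, was at -0.65, -0.40, -0.38, -1.19, -1.75, -1.38 and 0.71. LYS2 was at -1.53 at 6 h, with -0.36 before and -0.21 after, so that low value rests on the 6 h array alone. LYS12 was lowest at 5 h with -1.49, and LYS9 stayed between -0.78 and 0.53.

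The histidine genes HIS1, HIS3, HIS5 and HIS7 were all above 0 h at 1 h, between 0.09 and 0.89, with none past 2-fold. HIS1 (YER055C), for the first enzyme of the pathway, was at 0.46, 0.24, -0.33, 0.15, 0.43, 2.31 and 0.14. Its 4.97-fold excess over 0 h at 6 h thus rests on 1 array, with values near 0 h on both sides, and it was 3.00-fold with quantile-normalized columns. HIS5 (YIL116W), the histidinol-phosphate aminotransferase gene, was at 0.09, -0.46, 0.0026, -0.66, -1.64, -1.03 and -0.17. HIS7, which encodes the enzyme that closes the imidazole ring, was lowest in the 5 h sample (-0.81) and highest in the 8 h sample (0.87). HIS3, the dehydratase gene, was at 0.89 at 1 h and between -0.37 and 0.25 afterwards.

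Aromatic amino acids begin with DAHP synthase, present as the phenylalanine-sensitive Aro3 and the tyrosine-sensitive Aro4, followed by the multifunctional Aro1. ARO4 (YBR249C) had both the highest and the lowest value of this route, with 0.24, -0.13, -0.01, -0.41, -1.22, 0.10 and 1.38. ARO3 (YDR035W) was highest at 1 h with 0.87 and lowest at 6 h with -0.72. The isoenzyme genes were within 0.27 of each other from 2 to 4 h. The ratio to 0 h of ARO3 was higher by 1.27 at 5 h and that of ARO4 by 1.64 at 8 h. ARO1 lay between -0.96, in the 5 h sample, and 0.24, in the 8 h sample.

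In the tryptophan branch TRP3 (YKL211C), whose product works both with anthranilate synthase and as indole-glycerol-phosphate synthase, was at 1.39, 0.70, 0.33, 0.12, 0.47, 1.24 and 0.17. TRP2 (YER090W), for the other part of anthranilate synthase, was at 0.0011, -0.46, -0.43, -0.97, -0.76, -0.82 and -0.60. The ratios to 0 h for the 2 parts of this enzyme were therefore never closer than 0.77, with that of TRP3 higher at all 7 times. Such ratios do not tell which transcript was more abundant. TRP4, the phosphoribosyltransferase gene, lay between -0.95 at 5 h and 0.54 at 1 h, and TRP5, for tryptophan synthase, between -0.40 and 0.29.

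The genes that lead from aspartate to threonine were flat by comparison. HOM3 (YER052C), for aspartate kinase, was at 0.33, -0.22, 0.05, -0.29, -0.06, -0.59 and -0.42. THR4 (YCR053W), for threonine synthase, was at -0.19, 0.07, 0.04, -0.11, -1.19, -0.58 and 0.01, and so low at 5 h only. HOM2, for the next enzyme after Hom3, was below 0 h at every time, between -1.07 and -0.55, as was THR1, for homoserine kinase, between -0.98 and -0.36. HOM6, counted below among the other enzymes of the same pathways, was at -0.345, -0.77, -1.43, -1.59, -1.25, -1.12 and -0.61. SER1 (YOR184W), the phosphoserine aminotransferase gene, was at -1.30, -0.60, -1.24, -1.70, -0.61, -0.08 and -0.29. It was furthest below 0 h, by 3.26-fold, at 4 h, and nearest to it at 6 and 8 h.

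GCN4 (YEL009C) was at -0.37, 0.52, 0.12, -0.33, -1.31, -1.23 and -1.41 at 1 to 8 h. It was near 0 h up to 4 h and 2.34-fold to 2.66-fold below it at 5, 6 and 8 h. Its slope was -0.25 ± 0.08 log2 per hour (SE, 7 arrays) and did not pass (limma adjusted p = 0.108). Its ratio to 0 h was the lowest of the 34 at 8 h. At that time 13 of the 33 enzyme genes were above 0 h, against 2614 of all 5585 genes.

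Differences between the 1, 5 and 8 h values do not contain the 0 h measurement where the columns share it. The intervals were picked after the values had been seen. A 5 h value at least 2-fold lower than that at 1 h was found for 11 of the 34 (32.4%), against 16.2% of all genes, and 2 were at least 2-fold higher (BAT2 and LYS4), against 14.9%. The 11 were HIS5, LEU2, ILV2, ILV3, BAT1, LYS20, LYS21, LYS1, ARO4, TRP4 and THR4. At 8 h 13 (38.2%) were at least 2-fold higher than at 5 h, against 13.0% of all genes, and 3 at least 2-fold lower (LEU1, ILV1 and BAT2), against 12.3%. With quantile-normalized columns that last number was 1, against 9.2%. The fall from 1 h and the rise to 8 h share the single 5 h array, so they are not separate observations. ILV5 was at -1.04, -2.10 and -0.59 at 4, 5 and 6 h, and LYS12 at -0.50, -1.49 and -0.47. Their dips at 5 h thus rest on that array. LYS20 and LYS21 were lower still at 6 h, at -2.08 and -1.76.

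The 13 came from several branches: HIS5 and HIS7, LEU2, ILV3 and ILV5, LYS20, LYS21, LYS4, LYS12 and LYS1, ARO4 and ARO1, and THR4. The widest differences from 5 to 8 h were those of ARO4 (2.60, a 6.07-fold difference), LYS1 (2.46) and ILV3 (2.12). No tryptophan gene was among them, the largest difference there being 0.35 for TRP4. ILV2, BAT1 and GCN4, which were all lower at 5 h than at 1 h, differed by -0.06, -0.07 and -0.10 from 5 to 8 h. The median difference of the 34 was -0.82 from 1 to 5 h and 0.21 from 5 to 8 h, against -0.13 and -0.07 over all genes.

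**Figure D4:**
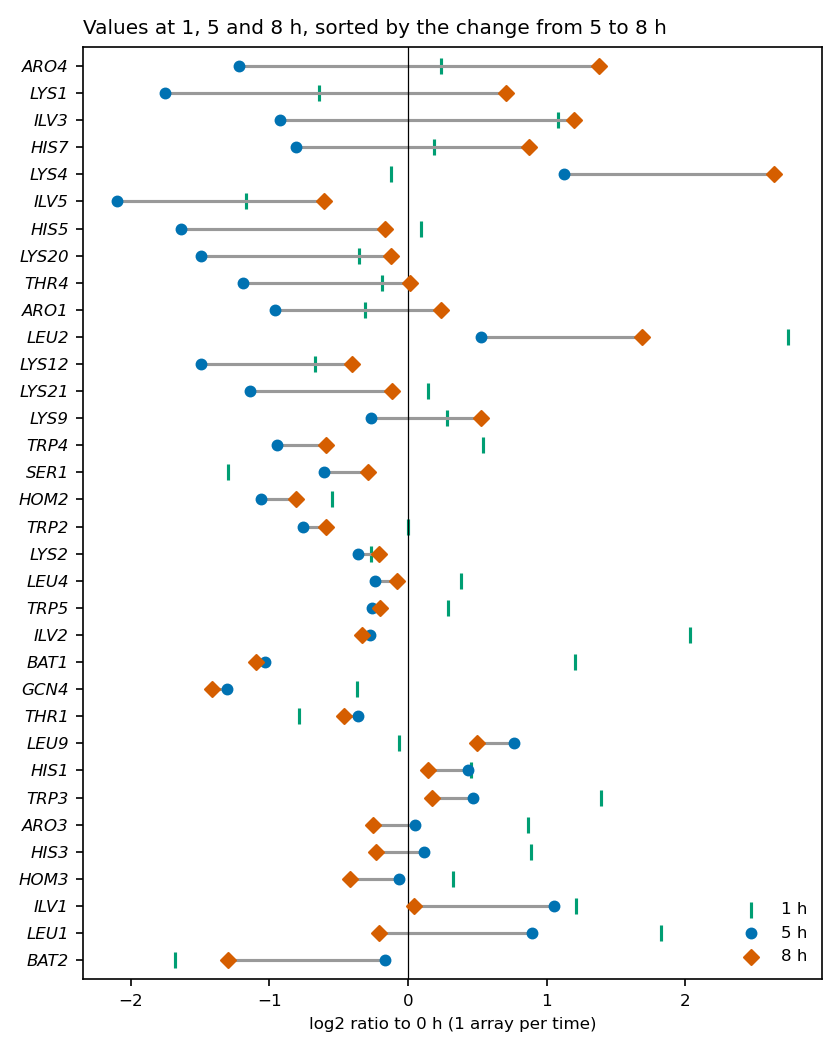
Log2 ratio to 0 h of the 34 genes at 1 h (green bars), 5 h (blue points) and 8 h (orange diamonds), 1 array per time, sorted from top to bottom by the change from 5 to 8 h. The top 13 genes, ARO4 to LYS21, lie at least 1 higher at 8 h than at 5 h, and LEU1, ILV1 and BAT2 at the bottom lie at least 1 lower.

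Both tests over time used all 7 arrays, with scatter around the fitted course as the only error. A line in hours was called for 75 rising genes (1.34% of 5585) and 40 falling genes (0.716%), at a limma adjusted p under 0.05. Among the 34 it was called for 1 rising gene, LYS4, and 0 falling ones, and at an unadjusted p under 0.05 for 1 and 4. Those 5 are 14.7% of the 34, against 23.0% of all genes at an unadjusted p under 0.05 (613 with a positive and 669 with a negative slope). The 4 with a negative slope were LEU1, ILV2, BAT1 and GCN4, between -0.32 and -0.22 log2 per hour. A line and a curve together were called for 317 genes (5.68%), among them 1 of the 34, again LYS4. ILV2 came next, with a slope of -0.32 ± 0.08 log2 per hour (SE, 7 arrays, limma adjusted p = 0.0606 for the line and 0.0537 for the curve). The slopes of the 34 had a median of -0.06, with 13 above 0 and 21 below. Over all genes the median was -0.02, with 2475 above 0 and 3110 below. These counts lean on single arrays: over all genes the line was called for 0 genes without the 1, 2 or 6 h array, and for 473 rising and 395 falling without the 8 h array. Without the 8 h array it was called for ILV2, LYS20 and LYS21, all falling, among the 34. The line and curve together were called for 1, 3 and 2 genes without the 2, 4 and 5 h arrays.

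Other enzymes of the same pathways (16 genes) had medians between -0.45 at 6 h and 0.06 at 1 h. GLY1 (YEL046C), for the threonine aldolase that makes glycine, had its first value at -1.34 and its last at 0.80, and rose by the slope test (0.38 ± 0.08 log2 per hour, SE, 7 arrays, limma adjusted p = 0.0496). TRP1 (YDR007W), for the isomerase of the tryptophan branch, was at -0.16, -0.90, -1.22, -1.63, -2.14, -2.43 and -1.83, lower than the 4 other tryptophan genes at every time, and passed the test for a curved course (limma adjusted p = 0.0443). GLY1 passed that test too, and the other 14 passed neither. With 1 array left out the slope of GLY1 passed only without 8 h, its curve only without 3 or 8 h, and the curve of TRP1 only without 3, 6 or 8 h. SER33, a phosphoglycerate dehydrogenase gene of serine synthesis, had the highest value (2.63 at 6 h) and SHM2, a serine hydroxymethyltransferase gene, the lowest (-2.75 at 5 h).

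Of 15 regulators 14 were measured, and none passed either test. LEU3 (YLR451W), the activator of the branched-chain genes, was at -0.16, 0.45, 0.28, 1.42, 2.45, 2.36 and 1.32, with its highest values at 5 and 6 h. Among the branched-chain genes, LEU1, LEU2, LEU4, ILV1, ILV2 and BAT1 were highest at 1 h. LEU9 and BAT2 were highest at 5 h, ILV5 at 6 h and ILV3 at 8 h. A relation of these courses to that of LEU3 was not tested. GCN20, a partner of Gcn1 in activating Gcn2, had the lowest value, -2.20 at 6 h, and the kinase gene GCN2 stayed between -0.84 and 0.29. PCL5, for the cyclin that directs Gcn4 to breakdown, was at -0.77, -1.65 and 0.88 at the last 3 times.

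The arginine genes (9) and the sulfur and methionine genes (12), many of which are Gcn4 targets as well, also had their highest median at 1 h, with 0.56 and 0.60. Their medians at 5 h were -0.64 and -0.57. In the 6 h sample the arginine median was at its lowest, -1.05, while the sulfur median was -0.15. In that sample 5 of the 9 arginine genes and 2 of the 12 sulfur genes were at least 2-fold below 0 h, against 19.5% of all genes. The medians at 8 h were -0.62 and -0.26, against -0.18 for the 34 genes. In the arginine list ARG3 fell by the slope test (-0.45 ± 0.08 log2 per hour, SE, 7 arrays, limma adjusted p = 0.0496), and also passed the test for a curved course; in the sulfur list no gene passed either test. With 1 array left out the slope of ARG3 passed only without 3 or 8 h, and its curve only without 3, 6 or 8 h. The lowest arginine value was -3.40 (ARG1 at 5 h), and sulfur values ran from -2.59 (CYS4 at 2 h) to 1.63 (MET13 at 8 h). No difference between these lists and the 34 genes was tested.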

How the data were processed

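Per the labels' protocols, polyadenylated RNA was made into aminoallyl cDNA, with the time point in Cy5 and the mixture of all times in Cy3 on every array. Per the series' design text, the authors deposited log2 ratios relative to 0 h. The sources used here do not name the array platform, scanner, background correction, normalization or spot filters, nor say how the 2 cultures enter the 1 value per time. Signal over background is unknown without intensities, and the number of arrays limits the precision.

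Rows with a value at all 7 times (5585 of 6141) were used. Of the listed rows, 35 of 36 matched the R64 reference table, which gave gene names and neighbours. Counts at 2-fold (log2 of at least 1 or at most -1) are descriptions. A line in hours, and a line with a curve (polynomial of degree 2, moderated F-test), were fitted with limma 3.58.1 in R 4.3.3, with 5 and 4 residual degrees of freedom. Both were also run on simulated data whose noise was independent between times. That simulation therefore does not check the p-values where arrays depend on each other. Adjusted p-values are Benjamini-Hochberg values over all 5585 genes. Since successive arrays of a time course depend on each other, these p-values are a ranking. Alternatives were columns centred on their median, quantile normalization, leaving out each array, rows with at least 5 values and, for the line, the order of times in place of hours. Genes were named where they passed a test, reached 4-fold, or were extreme in their pathway; others were named after their values were seen. The members and lists were chosen with earlier results of these data known. Planned comparisons of promoter motifs and protein sequences were not made. Tables and plots used Python 3.11.15, pandas 2.3.3, numpy 2.4.6 and matplotlib 3.10.9.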

Additional observations from a re-analysis of the deposited data

How the results depend on the processing

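Each time has 1 array, so the sizes at single times have no replicate check. No paired analysis was possible because the labels give no replicate numbers. The count of genes with a rising slope among the 34 was 0 with rows of at least 5 values (LYS4 at a limma adjusted p of 0.05006) and 0 without any 1 array. The count with a falling slope was 1 after quantile normalization and 1 with the order of times, in both cases ILV2, and between 0 and 3 without 1 array; the 3, without 8 h, were ILV2, LYS20 and LYS21. The curved course was called for 3 of the 34 after quantile normalization and for between 0 and 8 without 1 array. Without 6 h the 3 were LEU2, ILV2 and LYS4; without 8 h LYS4 was not among the 8. Over all genes, rising slopes numbered 229 after quantile normalization, 226 with the order of times and between 0 and 473 without 1 array. Falling slopes numbered 16 with centred columns, 201 after quantile normalization, 141 with the order of times and between 0 and 395 without 1 array. Curved courses numbered 661 after quantile normalization and between 1 and 1668 without 1 array. The highest counts were without 8 h; the cause was not tested. Of the 34 genes, those at least 2-fold above 0 h after quantile normalization numbered 4 (11.8%), 2 (5.9%) and 0 at 3, 4 and 5 h, against 12.9% of all genes at each, and those below at 5 h numbered 6 (17.6%), against 12.1%; with centred columns 2 (5.9%) were above at 4 h, against 12.4%. Genes at least 2-fold lower at 8 h than at 5 h numbered 1 (2.9%, against 9.2% of all genes) after quantile normalization, and those at least 2-fold higher 10 (29.4%, against 10.5% of all genes). The share highest at 1 h lay between 41.2% and 55.9% over the centred, quantile-normalized and reduced sets, against 17.7% and 23.6% of all genes at those ends. No single value at least 2-fold from 0 h changed sign under either scaling. Quantile normalization moved 8 of the 238 values by more than 1.5-fold, those of LEU2 at 1, 2 and 3 h, LEU1 at 1 and 3 h, ILV2 at 1 and 2 h and HIS1 at 6 h; centring moved 0.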
